A study of Canis lupus familiaris with 27 samples.

Results

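The genes described here are 9 enzymes and receptors that turn arachidonic acid into signalling lipids or read them: the lipoxygenases ALOX5 and ALOX12, the cyclooxygenases PTGS1 and PTGS2, the prostaglandin E synthase PTGES, the prostaglandin dehydrogenase HPGD and the prostaglandin E2 receptors PTGER2, PTGER3 and PTGER4. They were chosen by symbol, as all probe sets that the platform annotation gives to exactly 1 of these symbols, which found all 9 among 15115 genes on the array, with 16 of the 42860 probe sets tested. Each gene is read from its brightest probe set by mean, and the others are described beside it. ALOX12 was the only one of the 9 called by lymph node status, being lower in metastatic tumors. Over all genes 7.27% were called lower and 10.6% higher. The ALOX12 call rested on its brightest probe set and was lost with tumor size in the model. None of the 9 was called for histological grade or for tumor size, as 0% of all genes were.

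The samples were 27 invasive simple mammary carcinomas of dogs, 1 array per tumor, from 13 animals whose lymph nodes held metastases at resection (metastatic tumors) and 14 whose nodes did not (non-metastatic tumors). By the labels all 27 were negative for the estrogen receptor, and the metastatic group held 6 tumors of grade II and 7 of grade III, the non-metastatic group 5 of grade II and 9 of grade III. The non-metastatic animals were selected for large tumors, so that size differed between the groups by design (2.42 ± 1.32 cm against 5.21 ± 3.53 cm, SD), while age was 12.4 ± 2.66 against 11.4 ± 1.65 years. Tumors are numbered within each group in the order of the labels, and 1 of them, non-metastatic tumor 12, came from the animal that later developed lung metastases. The breeds were mixed, no treatment was named, and RNA came from macrodissected tissue of mostly carcinoma cells, so that fewer cells of a type and less RNA per cell cannot be told apart in these values.

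Arachidonic acid is freed from membranes by phospholipases and then follows separate routes. ALOX5 starts the synthesis of leukotrienes, which recruit leukocytes, and ALOX12, best known from platelets, makes 12-hydroxyeicosatetraenoic acid. PTGS1 is the constitutive and PTGS2 (COX-2) the inducible cyclooxygenase, which supply the precursor that PTGES turns into prostaglandin E2. HPGD inactivates prostaglandins, and the receptors relay prostaglandin E2 through cyclic AMP, which PTGER2 and PTGER4 raise and PTGER3 mostly lowers. COX-2 is a known target of anti-inflammatory drugs in canine mammary cancer.

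ALOX12 was the only one of the 9 genes called by lymph node status. The primer pair with which the study measured its transcript by qPCR is therefore shown, 5′ to 3′ and all in lower case. The first was labelled as forward, the second carried no label, and the qPCR values were not analysed here.
ALOX12 forward primer: gctgcaccctgtcttcaa
ALOX12 second primer: tgctcaccaccttatcgaat

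The deposited values are log2 signals between 0.29 and 16.61 with a median of 3.66, and the mean signal of the median probe set was 3.77. By that mark 5 of the 9 genes were brighter than the median probe set (PTGES, PTGER4, PTGS2, ALOX12 and PTGS1), and ALOX5, HPGD, PTGER2 and PTGER3 were dimmer. Pairs of arrays correlated between 0.91 and 0.99. The upper quartile of the array lay at 7.93 ± 0.04 in metastatic and 7.75 ± 0.15 in non-metastatic tumors (permutation test, two-sided, p = 0.00015), and the 3′ to 5′ difference of the GAPDH control probe sets was 1.84 ± 0.32 against 1.32 ± 0.42 (p = 0.00204). Sample names ended in T for 11 of the 13 metastatic and 0 of the 14 non-metastatic tumors, and what the letter stands for is not given in the sources used here. Differences between tumors were read within a probe set, and the median probe set served as a mark of dim signal.

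Lymph node status was compared first. ALOX12 was the single gene of the 9 that fell, and 0 rose, where over all 15115 genes 10.6% were called higher and 7.27% lower at an adjusted p under 0.05 (limma, Benjamini-Hochberg). The median difference of the 9 genes was 0.23 on the log2 scale, against -0.0019 over all genes, with 6 of the 9 positive. With the same limma fit and Benjamini-Hochberg adjustment over genes held to limits of 0.001 for the adjusted p and 1.7 for the fold, 0.801% of all genes and none of the 9 passed. The study put these limits on analysis of variance with q-values, which is another test.

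**Figure D1:**
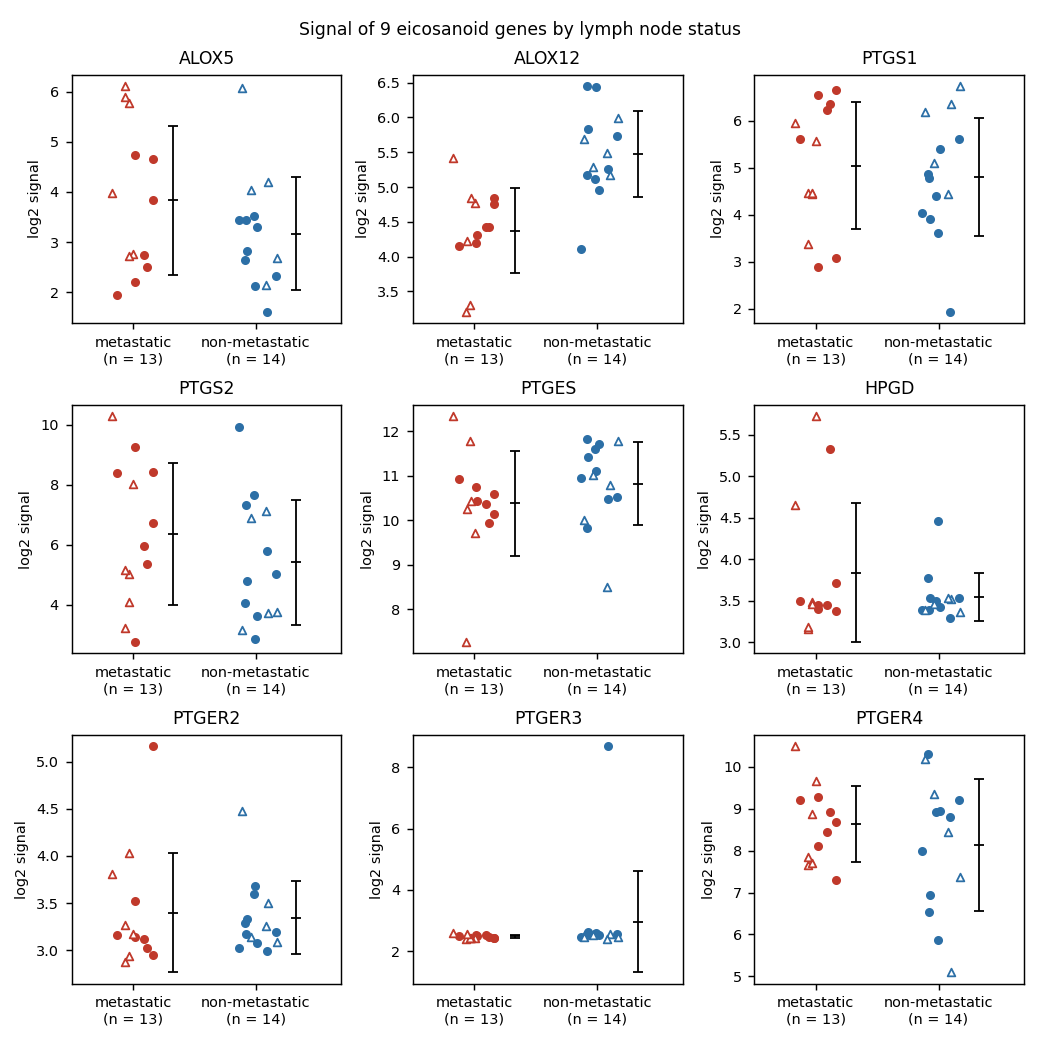
Log2 signal of the 9 genes in each tumor by lymph node status (red, metastatic, n = 13; blue, non-metastatic, n = 14; triangles, grade II; circles, grade III; black marks, mean ± SD). ALOX12 lay lower in metastatic tumors, PTGS2 spread from 2.76 to 10.30 over the tumors, and PTGER3 was high in 1 tumor at 8.69.

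ALOX12 signals ran from 3.21 over a median of 4.42 to 5.42 in metastatic tumors and from 4.11 over 5.39 to 6.45 in non-metastatic tumors. The ranges overlapped, but 12 of 13 metastatic tumors lay under the non-metastatic median, 7 non-metastatic tumors lay above the highest metastatic one, and metastatic tumors 5 and 8 lay below every non-metastatic one. The means were 4.37 ± 0.61 and 5.48 ± 0.61 (SD), a difference of -1.11 (SE 0.23, 95% interval -1.58 to -0.63, limma adjusted p = 0.00256), or 0.465 times the non-metastatic signal. The low non-metastatic tumor was number 4 at 4.11, and number 12, from the animal with later lung metastases, lay at 5.74. Leaving out any 1 tumor kept the difference between -1.21 and -1.01.

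The ALOX12 difference was not called in every fit. It was -0.90 (limma adjusted p = 0.0651) with log2 tumor size in the model, -0.76 (0.121) with the upper quartile of the array and -0.67 (0.563) with the letter that ends the sample name. The metastatic tumors without the letter T, numbers 1 and 2, were at 4.76 and 4.85. In a comparison chosen after the data were seen, the tumors of exactly 3 cm were set side by side. There the 5 metastatic tumors ranged from 3.30 to 4.85 and the 6 non-metastatic tumors from 5.17 to 6.45, with no overlap. The difference was -1.38, with an exact two-sided permutation p of 0.00216, the smallest that 462 regroupings allow, and an adjusted p of 0.0459 in the fit of all genes. Among all genes 4.04% were called in that fit, 4.95% had groups that did not overlap in either direction, and 1.83% had all metastatic tumors lower.

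The ALOX12 difference rested on 1 of its 4 probe sets. The other 3 had means of 2.45, 2.21 and 1.93 over all tumors, below the median probe set, and their differences were -0.14, -0.032 and -0.045, all negative and none called, where 21.2% of all probe sets were (adjusted over probe sets). The called probe set carries the suffix for a unique match, whereas 2 of the others carry the suffix for probes shared by several transcripts and 1 that for possible cross-hybridization. Their correlations with the called probe set within the groups ran from -0.06 to 0.27, over 27 tumors.

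Cell type markers were read beside ALOX12. Of the 5 platelet and megakaryocyte markers measured 4 lay below the median probe set, GP9 lowest at 1.95 and PPBP highest at 7.50, and the mean of the list was 3.20 ± 0.30 in metastatic and 3.35 ± 0.19 in non-metastatic tumors. All 7 measured markers of squamous keratinization, where 12-lipoxygenases are also known, lay below it too. Of 6 basal and myoepithelial markers 3 were called lower in metastatic tumors, where 7.27% of all genes were, with list means of 6.86 ± 1.20 and 8.62 ± 1.09. Within the groups ALOX12 correlated with the platelet list at 0.28 and with the basal list at 0.02, and with no marker list beyond ±0.28 (27 tumors). Their part in the difference was not tested.

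ALOX5 ran from 1.94 over 3.84 to 6.12 in metastatic tumors and from 1.60 over 3.06 to 6.08 in non-metastatic ones. The groups covered the same range, and 7 of 13 metastatic tumors lay above the non-metastatic median. The difference was 0.67 (SE 0.50, 95% interval -0.35 to 1.68, limma adjusted p = 0.344) and missed the threshold. Its second probe set, near 2.79 in all tumors with an SD of 0.12, gave -0.088.

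The cyclooxygenases did not pass the test by lymph node status. PTGS1 lay between 2.88 and 6.66 (median 5.57) in metastatic and between 1.93 and 6.74 (median 4.82) in non-metastatic tumors, a difference of 0.23 (SE 0.49, adjusted p = 0.758). PTGS2 was the most variable of the 9: its SD within the groups, 2.23, was at the 98.9th percentile of all genes, dim ones included, whose median SD was 0.46. Metastatic tumors ran from 2.76 over 5.97 to 10.30 and non-metastatic tumors from 2.87 over 4.91 to 9.94, and 10 of 13 metastatic tumors lay above the non-metastatic median. The difference was 0.95 (SE 0.84, adjusted p = 0.433), and its 95% interval of -0.78 to 2.69 spans a lower as well as a several-fold higher signal.

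PTGES ran from 7.27 over 10.42 to 12.34 in metastatic and from 8.50 over 10.98 to 11.82 in non-metastatic tumors. Although 11 of 13 metastatic tumors lay below the non-metastatic median, the difference of -0.45 (SE 0.40, adjusted p = 0.437) missed the threshold. It turned to 0.29 with log2 tumor size in the model. The 3 PTGES probe sets followed each other across tumors, with correlations of 0.78 to 0.95 within the groups, and their differences were -0.45, -0.31 and 0.14.

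HPGD, which breaks prostaglandins down, was near 3.5 in most tumors of both groups. The metastatic tumors ran from 3.17 over 3.47 to 5.73, where tumors 1, 7 and 10 stood above 4.5, and the non-metastatic ones from 3.29 over 3.48 to 4.46. The difference was 0.30 (SE 0.23, adjusted p = 0.37).

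The receptors for prostaglandin E2 did not differ beyond their spread either. PTGER4, a receptor well known on immune cells, ran from 7.29 over 8.68 to 10.49 in metastatic and from 5.09 over 8.62 to 10.31 in non-metastatic tumors (0.49, SE 0.49, adjusted p = 0.491). PTGER2 lay at medians of 3.16 and 3.23, with 1 metastatic tumor, number 4, at 5.16 (0.054, SE 0.20, adjusted p = 0.862). Its second probe set correlated with it at 0.50 within the groups and differed by -0.22. PTGER3 was at 2.39 to 2.62 in 26 of the 27 tumors and at 8.69 in non-metastatic tumor 8. The PTGER3 difference of -0.48 (adjusted p = 0.462) was -0.038 without that tumor.

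Non-metastatic tumor 8 also had the lowest readings of PTGS1 (1.93) and ALOX5 (1.60). Its mean over the 8 fibroblast markers was 7.21, where the other tumors lay between 9.77 and 13.71, and its mean over the macrophage and monocyte markers was 7.83, near the lowest of 7.74. Across all 27 tumors, within the groups, PTGS1 correlated with the mast cell list at 0.59, the fibroblast list at 0.55 and the macrophage list at 0.51. PTGER4 correlated with the mast cell list at 0.47 and the endothelial list at 0.46. HPGD did so with the mast cell list at 0.49, the squamous list at 0.45 and the fibroblast list at 0.43. PTGES correlated with the B and plasma cell list at -0.45. PTGER3, high in tumor 8 alone, correlated with the fibroblast list at -0.70. Non-metastatic tumor 8, low in PTGS1 and in the fibroblast and macrophage lists, was part of these correlations. They were not computed without it. PTGS2 followed no list beyond 0.34, the value for endothelium. These are descriptions over tissue mixtures, and the part of cell composition in the gene values was not tested.

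Levels of the 9 genes were then set against each other. Of the 36 pairs the strongest positive correlation within the groups was 0.38, between ALOX12 and HPGD, and PTGS2 correlated at 0.24 with PTGES, the enzyme that acts on its product, and at 0.08 with PTGS1. The most negative, -0.46 between PTGS1 and PTGER3, was -0.17 by rank. The genes whose pattern within the groups was most like that of ALOX12 were NR2C1 (0.70), RBM25 (0.67) and KLHDC8B (0.66), and for PTGS2 they were PARP3 (0.72), TMF1 (0.69) and PLA2R1 (0.68), a receptor of secreted phospholipase A2. RBM25, an RNA-binding splicing factor, was itself called lower in metastatic tumors, as 7.27% of all genes were, with a difference of -0.87 (limma adjusted p = 0.000397). These genes were picked as the most alike of 15115, and how high such values run by chance was not tested.

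**Figure D2:**
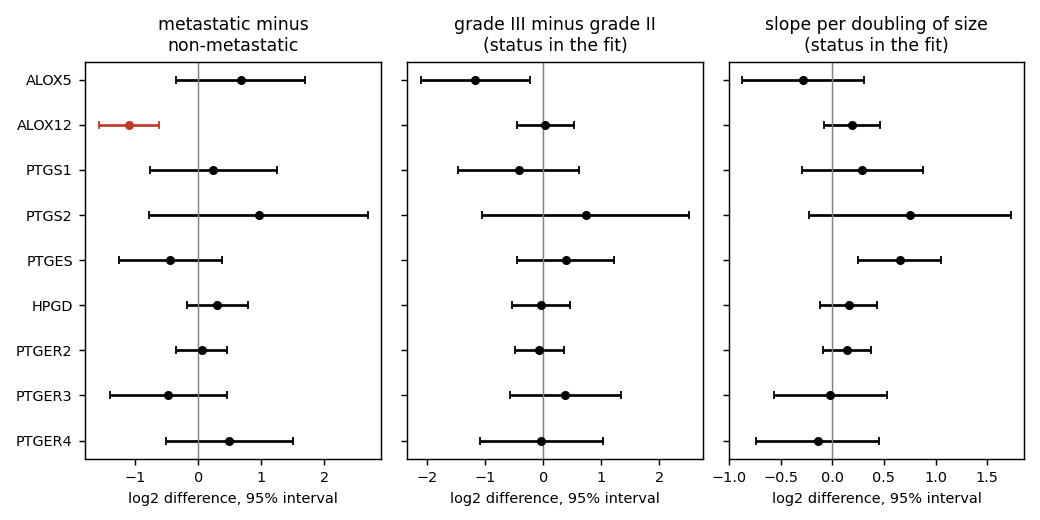
Difference by lymph node status, by grade and per doubling of tumor size for the 9 genes on the log2 scale, with 95% intervals from limma (27 tumors; the grade and size fits hold status as a term; red, adjusted p under 0.05). Only ALOX12 by lymph node status was called, at -1.11, and the intervals of ALOX5 for grade and PTGES for size lay off 0 without a call.

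Histological grade was compared with lymph node status in the model. None of the 9 genes was called, as none of all 15115 was (0%), and 1 of the 9 had an unadjusted p under 0.05, where 5.85% of all genes did. That gene was ALOX5, at -1.17 in grade III against grade II (SE 0.46, 95% interval -2.12 to -0.22, p = 0.0177 unadjusted, limma adjusted p = 0.738). In metastatic tumors ALOX5 ran from 2.71 over 4.88 to 6.12 in grade II and from 1.94 over 2.74 to 4.73 in grade III. In the non-metastatic tumors of grade II it was 2.14, 2.68, 4.04, 4.20 and 6.08, and in grade III it ran from 1.60 over 2.81 to 3.53. Grade II tumors were thus the higher ones by median in each group, with overlapping ranges. The difference was -1.31 within metastatic and -1.03 within non-metastatic tumors. The second, dim ALOX5 probe set went the other way at 0.060, and correlated with the first at -0.20 within the groups. The grade II value of 4.20 was that of non-metastatic tumor 1, which the study's clinical list has as grade III. ALOX12 differed by 0.038 between the grades (interval -0.46 to 0.54).

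ALOX12 was lower in metastatic tumors of each grade. In grade II the non-metastatic tumors were at 5.17, 5.29, 5.49, 5.69 and 6.00 and the metastatic ones ran from 3.21 over 4.49 to 5.42, a difference of -1.24. In grade III the metastatic tumors ran from 4.15 over 4.42 to 4.85 and the non-metastatic from 4.11 over 5.26 to 6.45, a difference of -1.01. The low end of the non-metastatic range was tumor 4. The effects in the 2 grades differed by 0.23 (SE 0.49, limma adjusted p = 1.0).

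A lymph node effect that differed by grade was called for none of the 9 genes and for 0% of all genes, and 1 of the 9 had an unadjusted p under 0.05 against 2.66% of all genes. This was PTGS1, with -1.06 in grade II and 1.05 in grade III, an interaction of 2.12 (SE 0.94, p = 0.0334 unadjusted, limma adjusted p = 1.0). The non-metastatic tumors of grade II held 6.74, 6.36, 6.20, 5.10 and 4.44 of PTGS1 signal, and those of grade III ran from 1.93 over 4.39 to 5.60. In metastatic tumors the median went the other way, from 4.46 in grade II to 6.24 in grade III. The means there were 4.71 and 5.34, and the ranges overlapped, from 3.38 to 5.94 and from 2.88 to 6.66. With 1 non-metastatic tumor counted as grade III, as the study's clinical list has it, the interaction was 1.76.

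Tumor size was compared as the slope per doubling of the diameter, with lymph node status in the model. None of the 9 genes and 0% of all genes were called, and 1 of the 9 had an unadjusted p under 0.05 against 7.75% of all genes. PTGES had a slope of 0.65 per doubling (SE 0.20, 95% interval 0.25 to 1.05, p = 0.00268 unadjusted, limma adjusted p = 0.639). That adjusted p was the smallest that any gene reached for size, but it was a tie. PLA2G12A, HPGDS and PLA2G15 had the same adjusted p at unadjusted limma p-values of 0.00225, 0.031 and 0.0591. Without metastatic tumor 5 the PTGES slope was 0.40. The other PTGES probe sets gave slopes of 0.58 and 0.25. The slope was 0.80 within metastatic tumors, where the smallest tumor, 0.5 cm across, had the lowest signal of 7.27, and 0.34 without that tumor. Within non-metastatic tumors the slope was 0.45, and the lowest signal, 8.50, was that of the smallest tumor of 2 cm, without which the slope was 0.14.

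**Figure D3:**
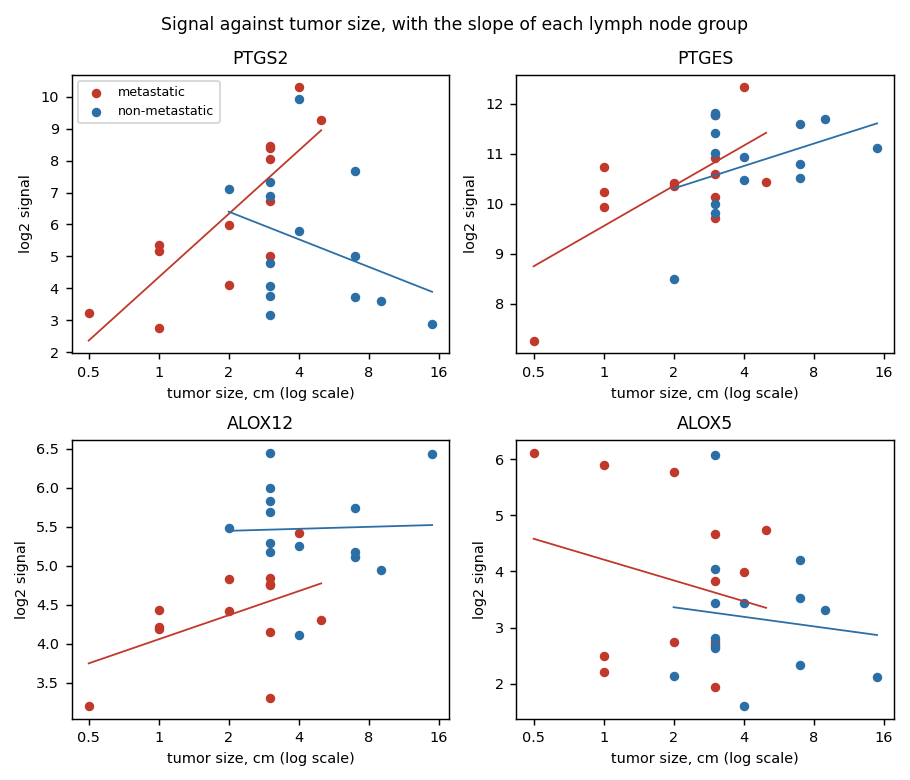
Log2 signal of PTGS2, PTGES, ALOX12 and ALOX5 against tumor size on a log scale (red, metastatic; blue, non-metastatic; lines, slope of each group, 13 and 14 tumors). The PTGS2 slope was 1.98 per doubling in metastatic and -0.86 in non-metastatic tumors, and the ALOX12 groups did not overlap at 3 cm.

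PTGS2 had slopes of opposite sign in the groups, a comparison chosen after the size values were seen. The 6 metastatic tumors of up to 2 cm lay between 2.76 and 5.97, the 5 of 3 cm between 5.03 and 8.45, and those of 4 and 5 cm at 10.30 and 9.28. This gave 1.98 per doubling (SE 0.41, p = 0.000419 unadjusted, limma adjusted p = 0.264 over all genes within that group). The slope stayed between 1.78 and 2.25 when any 1 metastatic tumor was left out, and between 1.96 and 2.57 without the tumors farthest from the median size. The non-metastatic tumors had 9.94 at 4 cm as their highest value and 2.87 at 15 cm as their lowest, with a slope of -0.86 (SE 0.67, adjusted p = 0.824) that was -0.04 without the tumors of 9 and 15 cm. The slopes differed by 2.84 (SE 0.79, p = 0.00136 unadjusted, limma adjusted p = 0.44), where 8.44% of all genes had an unadjusted p under 0.05 and 0.00662% passed the adjusted test, so that this difference missed the threshold for all genes. At 3 cm the 5 metastatic tumors had PTGS2 at 7.33 ± 1.46 and the 6 non-metastatic ones at 5.01 ± 1.71, with an adjusted p of 0.209 in the limma fit of all genes.

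The rest of the eicosanoid pathway was read from 5 lists of 68 genes, of which 61 had a probe set of their own symbol. By lymph node status 3 of the 61 rose, where 10.6% of all genes did, and 5 fell, where 7.27% did. With dim genes counted, the lists thus stood below the share of all genes for higher and near it for lower calls. Only 26 of the 61 were measured by probe sets above the median. Of these 26, 4 rose, PTGES2 being added, and 2 fell. The share of all genes in that fit was not counted. The median difference of the 61 was -0.03. Called higher in metastatic tumors were TBXAS1, PTGES3 and PLA2G12A, and called lower FAAH, AKR1C3, HPGDS, OXER1 and PLA2G12B. For grade and for size 0 of the 61 were called, as 0% of all genes were. At an unadjusted p under 0.05 there was 1 of the 61 for grade and 2 for size, where 5.85% and 7.75% of all genes passed.

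**Figure D4:**
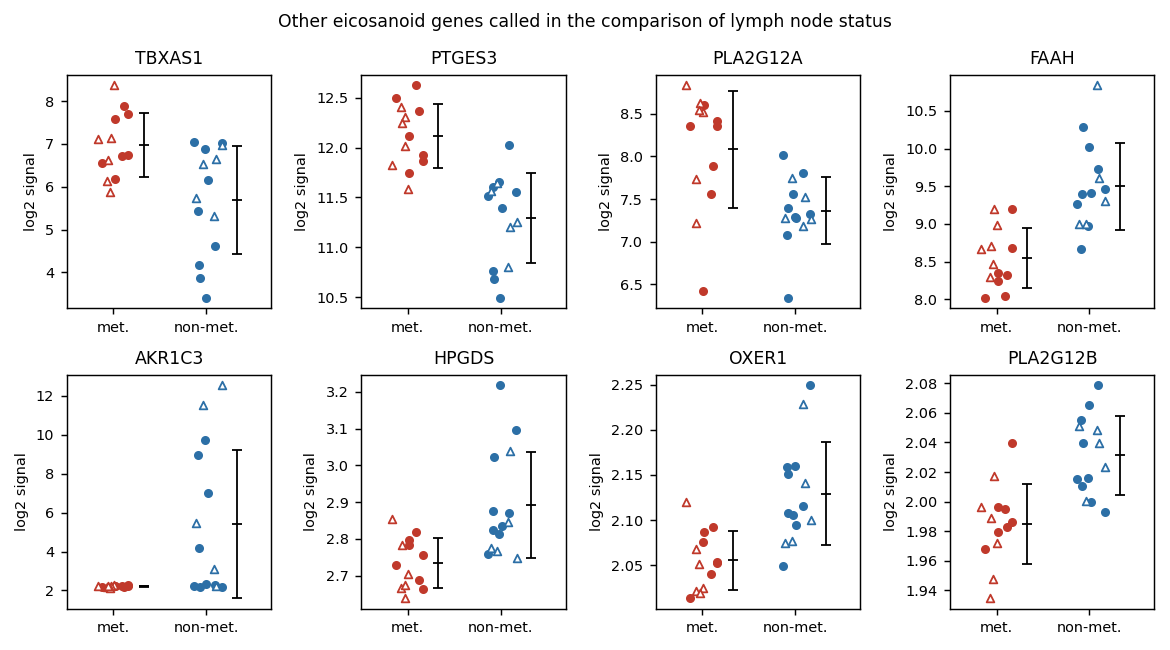
Log2 signal of the 8 other eicosanoid genes called by lymph node status (red, 13 metastatic tumors; blue, 14 non-metastatic tumors; triangles, grade II; circles, grade III; black marks, mean ± SD). TBXAS1, PTGES3 and PLA2G12A lay higher in metastatic tumors, AKR1C3 was raised in a part of the non-metastatic tumors alone, and the axes of HPGDS, OXER1 and PLA2G12B span less than 1 unit.

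Of 12 synthases and reductases that act after the cyclooxygenases, 2 rose (10.6% over all genes) and 2 fell (7.27%). TBXAS1, the thromboxane synthase, ran from 5.88 over 6.74 to 8.37 in metastatic and from 3.41 over 5.95 to 7.03 in non-metastatic tumors, a difference of 1.27 (SE 0.40, limma adjusted p = 0.028), and 12 of 13 metastatic tumors exceeded the median of the others. PTGES3, also known as the cochaperone p23, ran from 11.59 over 12.12 to 12.63 against 10.49 over 11.45 to 12.02, and all 13 metastatic tumors exceeded the median of the others (0.82, SE 0.15, adjusted p = 0.000966). It was the 1 gene of the 61 that passed these stricter limits in the limma fit. The inducible PTGES described above and the other prostaglandin E synthase, PTGES2, at 0.63 (adjusted p = 0.0592), were not called. PTGES2 was called higher with probe sets above the median only, and when metastatic tumor 1, 3, 7 or 9 was left out.

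AKR1C3, a reductase that makes prostaglandin F and also acts on steroids, was near the floor in all 13 metastatic tumors, between 2.15 and 2.26. In the non-metastatic tumors it ran from 2.16 over 3.65 to 12.53, and 7 of the 14 lay above the median probe set, with tumors 11, 5, 3 and 7 at 12.53, 11.53, 9.71 and 8.95. The difference of the means was -3.21 (SE 1.04, adjusted p = 0.0339), a value that mixes tumors at the floor with bright ones and was -5.09 with array weights. A second probe set gave -2.66 (0.0426 over probe sets). The call was lost without non-metastatic tumor 3 or 7, where the adjusted p rose as far as 0.0562. Non-metastatic tumor 12, from the animal with later lung metastases, was at 2.16. HPGDS, the hematopoietic prostaglandin D synthase, differed by -0.16 between signals of 2.74 and 2.89, both below the median probe set. Its call was lost after a further quantile normalization (-0.071, adjusted p = 0.0583) and with array weights (-0.088, adjusted p = 0.0648). PTGIS, the prostacyclin synthase, differed by 0.29 and was not called (adjusted p = 0.104).

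Of 18 genes that release or reroute arachidonic acid 1 rose and 2 fell, beside 10.6% and 7.27% of all genes. PLA2G12A, a secreted phospholipase A2, was 8.08 ± 0.69 in metastatic and 7.36 ± 0.39 in non-metastatic tumors (0.72, SE 0.21, limma adjusted p = 0.02), with 11 of 13 above the non-metastatic median, and its second probe set gave 0.44. FAAH, the hydrolase of fatty acid amides such as anandamide, was 8.55 ± 0.40 against 9.50 ± 0.58, with all 13 metastatic tumors below the non-metastatic median (-0.94, SE 0.19, adjusted p = 0.00191). Its dimmer probe sets gave 0.094 and -0.031. PLA2G12B differed by -0.046 between signals near 2.0, and by 0.00054 once each array was centred on its median, and its call was lost in 20 of the 27 fits that left out 1 tumor. PLA2G15 at 0.60 (adjusted p = 0.161) and PLA2G2D at -0.15 (0.162) were not called.

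Of 15 other receptors 1 fell and none rose, a share for lower calls close to the 7.27% of all genes. This was OXER1, a receptor for oxidized eicosanoids, at -0.074 between signals of 2.06 and 2.13, below the median probe set. With each array centred on its median the OXER1 difference was -0.027 and was not called (adjusted p = 0.501). PTGDR, a prostaglandin D2 receptor, was 6.08 against 7.24 with 12 of 13 metastatic tumors below the non-metastatic median, but missed the threshold (adjusted p = 0.1), as did LTB4R2 at -0.040 (0.16). Of the 11 other lipoxygenases and leukotriene enzymes 0 were called, beside 10.6% of all genes called higher and 7.27% lower. Among these 11, 0 had an unadjusted p under 0.05 in limma, where 34.4% of all genes did. The smallest p was for LTC4S, at a difference of 0.35 (adjusted p = 0.214), and then DPEP1 at -0.10 (0.286). Both lay below the median probe set, LTC4S at 2.51 in metastatic and 2.16 in non-metastatic tumors and DPEP1 at 2.87 and 2.97. So did most of the 11, whereas LTA4H, EPHX2 and GGT1 were brighter. For the dim ones a missing call says little about their RNA. Of the 5 transporters 0 were called and 0 had an unadjusted p under 0.05, beside the same shares of all genes. Those of smallest p were SLCO2A1 at -0.35 (0.51) and SLCO4A1 at 0.060 (0.635), again below the median probe set.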

How the data were processed

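Each of the 27 canine mammary carcinomas was measured by the authors on 1 Affymetrix Canine Genome 2.0 array. The arrays went through gcRMA in Partek, with background correction by RMA, quantile normalization and summarization by median polish. The result is a deposited log2 signal per probe set, used as given. The genome build is not given in the sources used here, so no coordinates are printed. The array holds 43035 probe sets, and without 175 controls 42860 were tested. The platform annotation names 1 gene for 29254 of these, several for 439 and none for 13167. Because the arrays measure signal and not reads, the number of tumors limits the precision.

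limma 3.58.1 in R 4.3.3 (lmFit, eBayes) was fitted to all probe sets. A gene was read from its probe set with the highest mean, and p-values were adjusted by Benjamini-Hochberg over 15115 genes, or over all probe sets for the others. The 4 fits were lymph node status, grade with status, log2 size with status, and the interaction of status and grade. The fits were also run on simulated data with planted changes and independent normal noise for each probe set and tumor. Differences across whole arrays, such as that of the upper quartile, were not simulated. Where a range is given with "over", the middle value is the median. Correlations within the groups are Pearson correlations after removal of group means. Permutation tests of array measures used 100000 permutations.

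Named are the 9 genes with all probe sets, the pathway genes called by status plus up to 2 uncalled ones of smallest p per list, the 3 genes most like ALOX12 and PTGS2, and the markers at the ends of a list. The genes and lists were chosen with earlier results of these data known. Alternatives covered scaling, probe set choice, dim probe sets, array weights, analysis of variance, covariates, thresholds, grade labels and single tumors. The 3 cm comparison and the slopes by group were added after the data were seen. Grade and size are those of the labels, and for 1 non-metastatic tumor the study's clinical list gives another grade.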

Additional observations from a re-analysis of the deposited data

Results flagged for a closer look

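In 4 of 36 combinations of a gene with a group of 1 lymph node status and grade, 1 tumor lay far from the rest by Dixon's criterion, which by chance alone marks about 5% of groups. The cause was not tested. PTGER3 was 8.69 in non-metastatic tumor 8, where the next of the 9 non-metastatic grade III tumors was 2.62. HPGD was 5.33 in metastatic tumor 7 (next 3.72) and 4.46 in non-metastatic tumor 10 (next 3.78), each of grade III. PTGER2 was 5.16 in metastatic tumor 4, with the next metastatic grade III tumor at 3.53.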

How the results depend on the processing

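With log2 size, the name ending or the array upper quartile as a covariate, or with limma held to the limits of the study (0.001 and 1.7-fold), 0 of the 9 genes were called by lymph node status. The 8 pathway genes called became 4 after a further quantile normalization, 3 with log2 size, 5 with age, 0 with the name ending, 1 with the upper quartile (AKR1C3), 1 at those limits (PTGES3) and 1 in the tumors of 3 cm (PLA2G12A, a comparison added after the data were seen). Of all genes 0.801% were called at the limits of the study and 4.04% in the tumors of 3 cm. For the other alternatives that share was not counted, so these losses cannot be told from a general loss of calls. Centring each array on its median turned the small PLA2G12B difference to 0.00054. Single tumors left out gave 1 of the 9 genes each time and 6 to 10 pathway genes by status, lowest without non-metastatic tumor 3 or 7 and highest without non-metastatic tumor 12. For grade, size and the interaction 0 of the 9 genes were called under every alternative run. ALOX12 stayed negative in all 40 alternatives, from -1.38 to -0.67, with adjusted p from 0.000616 to 0.563. TBXAS1 (1.15), PLA2G12A (0.54), HPGDS (-0.071) and PLA2G12B (-0.025) were not called after the further quantile normalization, nor TBXAS1 (1.19), AKR1C3 (-3.08) and PLA2G12B (-0.041) with age, nor TBXAS1 (1.44), AKR1C3 (-3.68), HPGDS (-0.095), OXER1 (-0.068) and PLA2G12B (-0.043) with log2 size. PTGS2 by status stayed positive in 40 and was called in 0. Restriction to probe sets above the median left ALOX5, HPGD, PTGER2 and PTGER3 unmeasured. No paired analysis was possible because each tumor came from a different animal, either with or without lymph node metastases. Dim probe sets limit what can be read for ALOX5, PTGER2, PTGER3, HPGD, the weaker ALOX12 probe sets and the many dim genes of the pathway lists.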
